A study of Rattus norvegicus with 20 samples.

Results

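The heat shock, DnaJ and endoplasmic reticulum folding genes of rat red skeletal muscle were followed over 20 microarrays. Members were taken by symbol: every gene whose name began with Hspa, Hspb, Hspd, Hspe, Hsph, Hsp90, Dnaja, Dnajb, Dnajc or a numbered Pdia, together with Herpud1. Only rows that carried that symbol alone were used, and the brightest row stood for a gene with several rows. This gave 69 genes out of 14557 tested, from 74 rows. Assigned from textbook location, 36 of them act in the cytosol and nucleus, 6 in mitochondria and 18 in the endoplasmic reticulum (ER), while 2 are binding partners and 7 are pseudogenes or related loci. The rule uses symbols and brightness, and it was set with earlier results of these data known.

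The red tibialis anterior, a muscle of the lower hindlimb, supplied the RNA, and the donors were male rats whose strain the labels give as Zucker. There were 5 rats in each of 4 groups: rosiglitazone, resveratrol, obese and lean control. The protocol speaks of ZDF rats without setting the lean controls apart, while the study's own text names lean control rats and ZDF (Zucker diabetic fatty) rats as separate animals. Every group was housed singly on a reversed cycle of 12 h light and 12 h dark with free access to food. Lean controls ate a standard chow and obese rats a stock diet for 6 weeks. Fatty ZDF rats are bred as a model of diabetes with obesity that follows from a mutated leptin receptor. Rosiglitazone is an agonist of the nuclear receptor PPARgamma, and resveratrol is a plant polyphenol. Neither drug dose, length of treatment, age of the rats nor the genotype of each treated rat is stated in the labels, and each array is taken as a separate rat, as the titles number them. Comparisons that share the obese or the lean control arrays are not independent of each other.

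Molecular chaperones hold unfolded proteins and help them reach their final shape. HSP70 proteins bind and release client proteins with ATP, DnaJ (HSP40) proteins deliver clients and trigger that ATPase, and HSP110 proteins reset it by exchanging the nucleotide. Small heat shock proteins hold damaged proteins without ATP and are abundant in striated muscle, where they sit near the contractile apparatus. In the ER lumen the HSP70 protein Hspa5 (BiP) works with its own DnaJ partners and with protein disulphide isomerases. Heat shock factor Hsf1 switches on the cytosolic set through heat shock elements, and the unfolded protein response switches on the ER set through ER stress response elements.

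Promoters of 300 bases, 250 before and 50 after the annotated start, were at hand for 52 of the 69 members (RefSeq, build GRCr8). A heat shock element, GAA, TTC and GAA with 2 free bases between neighbours, was found in 3 of these 52, Dnaja1, Hspe1 and Hsph1, and in 0.798% of all 33469 promoters of this length. The ER stress response element, CCAAT and CCACG with 9 free bases between them, was found for Hspa5 and Dnajc3 and in 0.0657% of all promoters. Its second form, ATTGG and CCACG with 1 free base between them, was found for Herpud1 and Dnajb11 and in 0.0508% of all promoters. A direct repeat of the kind bound by PPAR receptors, AGGTCA repeated after 1 free base, was found in 0 of the 52 and in 0.0538% of all promoters. The cyclic AMP element TGACGTCA was found for Dnajc27, Dnajc30 and Hsp90ab1 and in 1.83% of all promoters. Both strands were read, the ER elements share the letters CCACG, and a match describes letters only. Windows of 4 genes are shown because their levels are set against each other in the results: an ER pair (Herpud1 and Hspa5) and a cytosolic pair (Hsph1 and Dnaja1). Capitals mark the motif.
Herpud1, chr19:10614658-10614957, minus strand, second ER stress element from position -124: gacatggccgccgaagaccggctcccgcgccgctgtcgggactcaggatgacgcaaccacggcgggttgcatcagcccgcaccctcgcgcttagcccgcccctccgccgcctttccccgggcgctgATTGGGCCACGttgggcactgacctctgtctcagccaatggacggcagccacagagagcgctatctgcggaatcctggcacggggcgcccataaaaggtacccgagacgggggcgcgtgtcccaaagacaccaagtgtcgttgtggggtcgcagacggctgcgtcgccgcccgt
Hspa5, chr3:38452766-38453065, plus strand, ER stress element from position -43: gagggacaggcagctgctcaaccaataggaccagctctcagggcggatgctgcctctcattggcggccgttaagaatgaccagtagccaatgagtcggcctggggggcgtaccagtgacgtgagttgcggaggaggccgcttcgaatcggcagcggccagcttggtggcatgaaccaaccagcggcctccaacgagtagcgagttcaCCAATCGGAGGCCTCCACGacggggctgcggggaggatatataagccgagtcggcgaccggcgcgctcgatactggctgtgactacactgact
Hsph1, chr12:10427118-10427417, plus strand, heat shock element read on the opposite strand from position -36: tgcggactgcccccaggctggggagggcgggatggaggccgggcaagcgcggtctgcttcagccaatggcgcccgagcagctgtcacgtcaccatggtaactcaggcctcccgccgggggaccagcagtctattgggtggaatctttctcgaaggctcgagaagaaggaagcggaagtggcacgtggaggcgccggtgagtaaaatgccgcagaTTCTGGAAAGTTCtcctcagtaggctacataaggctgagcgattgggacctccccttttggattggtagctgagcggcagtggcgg
Dnaja1, chr5:60638154-60638453, plus strand, heat shock element from position 10 after the start: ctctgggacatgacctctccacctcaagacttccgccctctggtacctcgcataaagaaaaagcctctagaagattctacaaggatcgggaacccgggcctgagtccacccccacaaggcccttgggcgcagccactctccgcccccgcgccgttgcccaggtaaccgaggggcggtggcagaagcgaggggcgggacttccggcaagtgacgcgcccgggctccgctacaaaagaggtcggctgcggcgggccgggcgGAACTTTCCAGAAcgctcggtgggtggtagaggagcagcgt

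All values are log2 signals, so a difference of 1 is a doubling. A signal depends on the probes as well as on the RNA, so levels were compared between groups for a gene and not between genes. Array medians lay between 2.46 and 2.55, and 43 members had a mean of 4 or more. The other 26 were dimmer, and 15 of these lay below the highest array median, where a signal above background was not shown. Arrays of a group correlated at 0.980 to 0.987 over all genes. The muscle label held: Acta1, Ckm, Mb, Actn2 and Des averaged above 10 in every group, and 7 of 9 listed muscle markers were measured. Of the 7 measured, the remaining 2 were slow-fibre genes, Myh7 and Tnnt1, with lower means in obese than in lean control muscle. Myh7 stood at 8.41 against 8.83 (adjusted p = 0.470, limma) and Tnnt1 at 7.87 against 8.39 (adjusted p = 0.393, limma), neither called. Some markers of other cells moved with rosiglitazone. Of 7 adipocyte markers, 5 were called higher in rosiglitazone than in obese muscle, and their mean per array ran from 5.14 to 5.83 in rosiglitazone and from 4.41 to 4.62 in obese muscle. Of 5 measured endothelial markers, 3 were called higher (5.33 to 5.62 in rosiglitazone, 4.78 to 5.16 in obese). Of 6 fibroblast markers, 1 was called lower (5.17 to 5.93 in rosiglitazone, 5.73 to 6.71 in obese). All 6 were lower at an unadjusted p under 0.05 (limma), with a median log2 fold change of -0.81. In a bulk sample, fewer cells of a type and less RNA per cell cannot be told apart.

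Few chaperone genes separated the groups. With limma, and the Benjamini-Hochberg adjustment over all 14557 genes, 1 member was called in each comparison between rosiglitazone and another group, and 0 members in the other comparisons. Rosiglitazone against obese gave Hspa2, higher, where 1.94% of all genes were called. Rosiglitazone against resveratrol gave Pdia5, higher (2.04% of all genes). Rosiglitazone against lean control gave Herpud1, higher (3.50% of all genes). A single call among 69 members is a share near these backgrounds. Resveratrol against obese gave 0 called members (0% of all genes), resveratrol against lean control 0 (0.0137%), and obese against lean control 0 (0.00687%).

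At an unadjusted p under 0.05 the members stood near the background too. Rosiglitazone against obese had 10 such members (14.5%, beside 13.6% of all genes), rosiglitazone against resveratrol 10 (14.5%, beside 13.0%) and rosiglitazone against lean control 14 (20.3%, beside 15.9%). Resveratrol against obese had 6 (8.70%, beside 7.41%), resveratrol against lean control 4 (5.80%, beside 8.63%) and obese against lean control 10 (14.5%, beside 10.8%). Groups did not overlap for 4 members in rosiglitazone against obese (3.59% of all genes), 2 in rosiglitazone against resveratrol (3.67%) and 4 in rosiglitazone against lean control (5.04%). They did not overlap for 2 members in resveratrol against obese (1.28%), 0 in resveratrol against lean control (1.82%) and 1 in obese against lean control (2.36%). The median log2 fold change of the members lay between -0.05 and 0.07 in the 6 comparisons, beside -0.01 to 0.00 over all genes. Genes of mean log2 4 or more had medians from -0.05 to 0.02. Many members were measured closely enough to bound a change: in rosiglitazone against obese, 54 of 69 had a 95% interval that stayed within 1.5-fold in either direction, and in resveratrol against obese 62 of 69 did. The interval reached a median of 0.29 log2 units to either side.

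**Figure D1:**
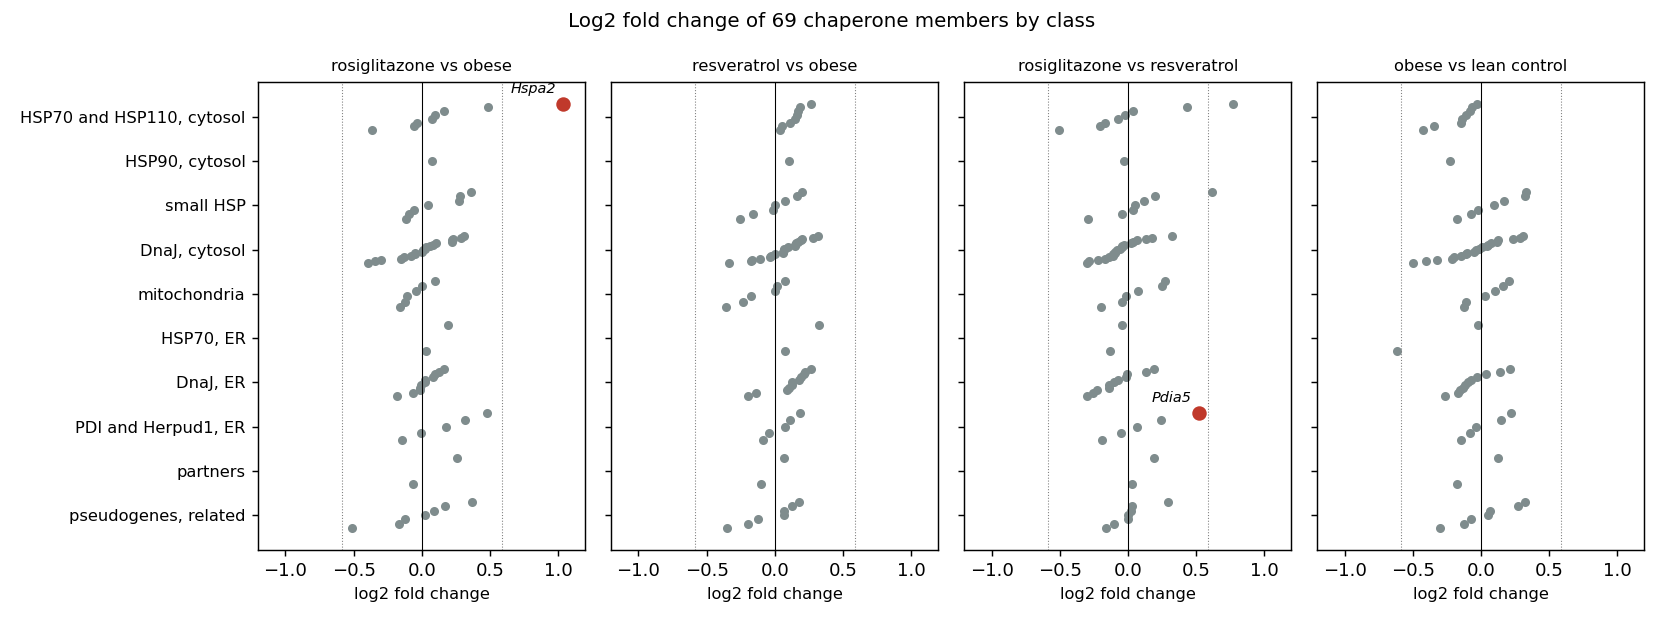
Log2 fold change (x axis) of the 69 members, grouped by class (y axis), in 4 comparisons; each point is a gene, red points with names are called at an adjusted p under 0.05, and dotted lines mark 1.5-fold. Most points lie inside the dotted lines, Hspa2 stands at 1.04 in rosiglitazone against obese, Pdia5 at 0.52 in rosiglitazone against resveratrol, and the lowest point, at -0.62 in obese against lean control, is Hspa13.

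Among the cytosolic HSP70 and HSP110 genes, Hspa2 was the member called. Hspa2 is an HSP70 protein best known from the testis, where it is needed for sperm formation. Its log2 signal was 3.73, 3.78, 3.85, 3.20 and 3.70 in rosiglitazone muscle. It was 2.91, 2.43, 3.46, 2.24 and 3.35 in resveratrol, 2.70, 2.47, 2.25, 2.57 and 3.08 in obese and 3.35, 2.86, 3.05, 2.72 and 3.21 in lean control muscle. Every rosiglitazone array lay above every obese array, while the resveratrol arrays spread over a wide range. Against obese, Hspa2 was 2.05-fold higher (log2 fold change 1.04, SE 0.21, adjusted p = 0.00636, limma). The call held in all 15 alternatives that tested it, with adjusted p between 0.00202 and 0.0271. It was too dim to enter the set of genes with a mean of 4 or more, and the obese mean of 2.61 lay just above the array medians. Against resveratrol the log2 fold change was 0.77 (adjusted p = 0.0517) and against lean control 0.61 (adjusted p = 0.112). In the same comparison with obese muscle 5 of 7 adipocyte, 3 of 5 endothelial and 1 of 6 fibroblast markers were called, as given above, and their part in this result was not tested.

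Hspa12b is an atypical HSP70 relative described in endothelial cells. Its log2 signal was 4.31, 4.65, 4.47, 4.36 and 4.27 in rosiglitazone against 3.67, 4.11, 3.81, 3.92 and 4.11 in obese muscle. The groups did not overlap, nor did rosiglitazone and lean control muscle, whose arrays ran from 3.85 to 4.22 in lean control. The log2 fold change was 0.49 against obese (adjusted p = 0.0935) and 0.34 against lean control (adjusted p = 0.232). Neither passed, although the first passed among the genes of mean 4 or more (adjusted p = 0.0376). Of the 5 endothelial markers, Vwf, Tek and Esam were called higher against both groups, while Cdh5 (7.23 in rosiglitazone, 7.19 in obese, 7.30 in lean control) and Cldn5 (4.01, 4.01 and 3.92 in the same order) were not, and their part was not tested.

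Hsph1, the stress-inducible HSP110 exchange factor whose promoter is shown above, had the lowest values under rosiglitazone. Its log2 signal was 5.83, 5.45, 5.98, 5.64 and 5.57 in rosiglitazone. In resveratrol it was 6.06, 6.20, 6.11, 6.72 and 5.92, in obese 6.19, 5.89, 5.96, 6.37 and 5.86, and in lean control muscle 6.44, 5.98, 6.29, 5.92 and 6.06. Only rosiglitazone replicate 3 reached into the range of the other groups. The log2 fold change was -0.51 against resveratrol (adjusted p = 0.0847), -0.36 against obese (adjusted p = 0.266) and -0.45 against lean control (adjusted p = 0.107). None passed. Hspa4, the constitutive HSP110, had close group means, at 7.37 ± 0.09 in rosiglitazone, 7.54 ± 0.09 in resveratrol, 7.43 ± 0.10 in obese and 7.53 ± 0.09 in lean control (SD, n = 5 each).

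The heat-inducible Hspa1b was dim in all groups, at 2.68 ± 0.35 in rosiglitazone, 2.88 ± 0.19 in resveratrol, 2.71 ± 0.16 in obese and 2.78 ± 0.25 in lean control (SD, n = 5 each). Hspa1b and Hspa1a are nearly identical in sequence, so its signal may belong to either gene. Its lowest log2 fold change was -0.20, in rosiglitazone against resveratrol, and it was called in no comparison. As a class, all 8 cytosolic HSP70 and HSP110 genes had a positive log2 fold change in resveratrol against obese (median 0.15, beside 0.00 over all genes). All 8 had a negative value in obese against lean control (median -0.12). The median there was -0.01 over all genes and -0.05 over those of mean log2 4 or more. Of all 69 members, 49 were positive in resveratrol against obese and 42 negative in obese against lean control. The obese arrays serve in both comparisons, no single gene was called in either, and the direction of the class was not tested.

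**Figure D2:**
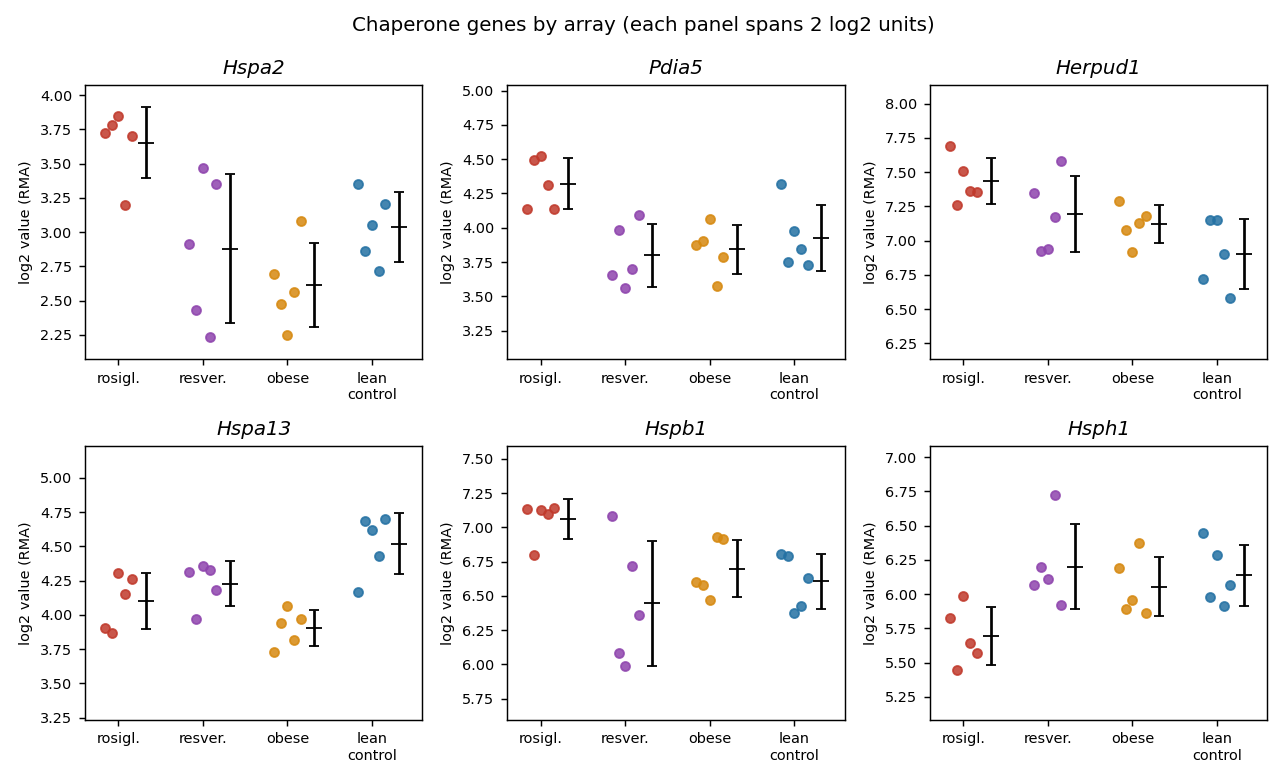
Log2 RMA signal (y axis) of 6 chaperone genes in rosiglitazone, resveratrol, obese and lean control muscle (x axis); coloured points are arrays in replicate order, and the black bar beside them is the mean with its SD (n = 5). For Hspa2 the rosiglitazone points sit at 3.20 to 3.85, above all obese points (2.25 to 3.08), and for Hspa13 the obese points (3.73 to 4.07) sit below all lean control points (4.17 to 4.70).

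The cytosolic DnaJ genes, the partners that load clients onto HSP70, gave no call in any comparison. In obese against lean control, 7 of 20 had an unadjusted p under 0.05 (35.0%), 5 lower and 2 higher. The share was 10.8% of all genes and 13.0% of those of mean log2 4 or more. Dnajb1, the stress-inducible HSP40, had a log2 signal of 2.91, 2.32, 3.10, 2.76 and 2.98 in obese against 3.24, 3.62, 3.13, 3.65 and 2.92 in lean control muscle. Its groups overlapped, with lean control replicate 5 inside the obese range. The log2 fold change was -0.50 (SE 0.17, adjusted p = 0.281). Dnaja1, whose promoter is shown above, is a farnesylated HSP40 of the cytosol. It read 6.96, 6.35, 6.43, 6.76 and 6.42 in obese and 7.05, 7.16, 7.14, 6.82 and 6.75 in lean control muscle. Obese replicates 1 and 4 lay inside the lean control range. Its log2 fold change was -0.40 (SE 0.16, adjusted p = 0.381).

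The other cytosolic DnaJ genes with a lower obese mean at this level were Dnajc2, a ribosome-associated protein (-0.21), Dnajc13, which works on endosomes (-0.20), and Dnajc9, a histone chaperone (-0.32). Those with a higher mean, Dnajc5b and Dnajc5g, were dimmer than the array medians. With rosiglitazone, Dnajc12 had the lowest log2 fold change of the class against obese, at -0.39 (4.15 ± 0.34 in rosiglitazone, 4.55 ± 0.19 in obese, SD, n = 5 each, adjusted p = 0.232). Dnajc12 assists the folding of aromatic amino acid hydroxylases. Dnaja4 had -0.30 against resveratrol (adjusted p = 0.328), and Dnajc13 did not overlap with lean control (-0.25, adjusted p = 0.148). Dnajb5 averaged 5.39 ± 0.11 in rosiglitazone and 4.87 ± 0.59 in lean control (SD, n = 5 each), with a log2 fold change of 0.52 (adjusted p = 0.165). It was called only without lean control replicate 4 (adjusted p = 0.0272). Dnajb7, at the dim end, had the highest value of the class in rosiglitazone against obese, 0.31. Dnajb4, abundant in muscle and heart, stayed between 7.08 and 7.39 in all group means.

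Hsp90ab1, the constitutive cytosolic HSP90, was the single HSP90 gene among the members. It read 8.03, 7.44, 7.97, 7.65 and 7.52 in rosiglitazone, 7.39, 7.51, 7.89, 8.24 and 7.73 in resveratrol, 7.96, 7.31, 7.55, 7.71 and 7.71 in obese and 7.81, 7.89, 7.77, 7.90 and 8.01 in lean control muscle. The groups overlapped, and the lean control arrays were the most tightly grouped. Log2 fold changes were 0.08 for rosiglitazone and 0.11 for resveratrol against obese, and -0.23 for obese against lean control (adjusted p = 0.624).

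None of the 7 small heat shock proteins was called in any comparison. Hspb1 (HSP27), which guards actin filaments, read 7.13, 6.80, 7.12, 7.10 and 7.14 in rosiglitazone and 7.08, 6.08, 5.99, 6.71 and 6.36 in resveratrol muscle. It read 6.60, 6.58, 6.47, 6.93 and 6.92 in obese and 6.81, 6.79, 6.37, 6.43 and 6.63 in lean control muscle. All rosiglitazone arrays but replicate 2 lay above every obese and lean control array, and resveratrol replicate 1 reached the rosiglitazone range. Against resveratrol the log2 fold change was 0.61 (SE 0.17, adjusted p = 0.0554). It was called without resveratrol replicate 1 (adjusted p = 0.00518), without resveratrol replicate 4 (adjusted p = 0.0458), among the brighter genes (0.0222), with trend and robust moderation (0.0324) and with a replicate block (0.0478). Against obese it was 0.36 (adjusted p = 0.341) and against lean control 0.45 (adjusted p = 0.152). Against resveratrol 3 of 7 adipocyte, 3 of 5 endothelial and 1 of 6 fibroblast markers were called in the same arrays, and their part was not tested. All 6 fibroblast markers were lower there at an unadjusted p under 0.05 (limma).

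Hspb6 (HSP20), a muscle protein that binds actin regulators, averaged 10.33 ± 0.22 in rosiglitazone and 10.06 ± 0.14 in obese (SD, n = 5 each), with a log2 fold change of 0.27 (adjusted p = 0.280). Hspb7, a cardiac and skeletal muscle protein, had its highest difference in rosiglitazone against lean control, 0.38 (adjusted p = 0.256). Hspb3, which pairs with Hspb2 in muscle, spread widely within each group. Its means were 4.90 ± 0.39 in rosiglitazone, 5.19 ± 0.49 in resveratrol, 4.99 ± 0.35 in obese and 4.67 ± 0.48 in lean control (SD, n = 5 each), and the highest difference was 0.52 in resveratrol against lean control (adjusted p = 0.554). Hspb2 stayed between 5.21 and 5.45 and Hspb8, the partner of Bag3 in filament upkeep, between 7.13 and 7.30 in all group means.

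Of the mitochondrial members, Hspa9 and Hspe1 belong to the matrix folding machinery. Hspa9 (mortalin) also pulls newly made proteins through the inner membrane. It read 9.83, 9.59, 9.85, 9.76 and 9.60 in rosiglitazone, 9.94, 10.00, 9.88, 9.94 and 9.87 in resveratrol, 9.91, 9.82, 9.93, 9.88 and 9.71 in obese and 9.96, 10.03, 9.94, 10.01 and 9.90 in lean control muscle. The rosiglitazone arrays all lay below every resveratrol array and below every lean control array. The differences were small, -0.20 against resveratrol (adjusted p = 0.302) and -0.24 against lean control (adjusted p = 0.122), and neither passed. The second passed among the brighter genes (adjusted p = 0.0234) and with trend and robust moderation (0.0110).

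Hspe1, the lid of the mitochondrial chaperonin, averaged 6.01 ± 0.23 in rosiglitazone, 5.93 ± 0.13 in resveratrol and 6.16 ± 0.11 in obese (SD, n = 5 each). Its log2 fold change in resveratrol against obese was -0.23 (adjusted p = 0.659). Dnajc4, a DnaJ protein assigned to mitochondria, read 5.75, 5.70, 5.86, 5.85 and 5.48 in resveratrol against 5.94, 6.13, 5.90, 6.28 and 6.17 in obese muscle. The groups did not overlap, and the log2 fold change was -0.36 (SE 0.11, adjusted p = 0.559). Dnajc15, which sits at the protein import channel, had its highest value, 0.18, in resveratrol against lean control. Dnajc30, which associates with ATP synthase, had 0.27 in rosiglitazone against resveratrol and -0.29 in resveratrol against lean control, neither called.

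In the ER, the master chaperone Hspa5 did not differ beyond the spread of its arrays in any comparison. Its log2 signal was 7.64, 7.59, 7.54, 7.60 and 7.82 in rosiglitazone, 7.68, 7.70, 7.79, 7.71 and 7.53 in resveratrol, 7.67, 7.68, 7.56, 7.44 and 7.68 in obese and 7.70, 7.51, 7.74, 7.60 and 7.62 in lean control muscle. All groups overlapped. The log2 fold change was 0.03 for rosiglitazone against obese (95% interval -0.15 to 0.21), 0.07 for resveratrol against obese (-0.11 to 0.25) and -0.02 for obese against lean control (-0.21 to 0.16). A change of 1.5-fold in either direction lay outside these intervals.

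Herpud1, an ER membrane protein that helps retrotranslocate misfolded proteins for degradation, was higher in rosiglitazone than in lean control muscle. It read 7.69, 7.26, 7.51, 7.36 and 7.35 in rosiglitazone, 7.34, 6.93, 6.94, 7.17 and 7.58 in resveratrol, 7.29, 7.08, 6.92, 7.13 and 7.18 in obese and 6.72, 7.15, 7.15, 6.90 and 6.58 in lean control muscle. The rosiglitazone and lean control arrays did not overlap, while the obese and resveratrol arrays lay between and across them. Against lean control Herpud1 was 1.45-fold higher (log2 fold change 0.53, SE 0.14, adjusted p = 0.0284, limma). Over 16 alternatives the adjusted p ran from 0.00829 to 0.0925 and 9 kept the call. It was lost without lean control replicate 1 (0.0856), 4 (0.0539) or 5 (0.0925), without rosiglitazone replicate 1 (0.0809) or 3 (0.0633), with only the 2 groups compared (0.0503) and with a replicate block (0.0572). Against obese the log2 fold change was 0.32 (adjusted p = 0.295). In this comparison with lean control 6 of 6 fibroblast markers were called lower and 5 of 7 adipocyte and 3 of 5 endothelial markers higher, and their part was not tested.

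Herpud1 and Hspa5 both hold an ER stress element in the windows shown, yet their values ran apart in rosiglitazone against lean control, 0.53 for Herpud1 and 0.01 for Hspa5 (95% interval -0.18 to 0.19). The other genes with such an element were flat or nearly so in that comparison, Dnajc3 at 0.03 and Dnajb11 at 0.01. Dnajc3 is a co-chaperone that restrains the stress kinase PERK, and Dnajb11 is a soluble partner of BiP. In the cytosol, Hsph1 and Dnaja1 both hold a heat shock element and stood at -0.36 and 0.22 in rosiglitazone against obese, neither called. They did not part in direction against the other groups. The Hsph1 mean was 5.69 in rosiglitazone, 6.20 in resveratrol and 6.14 in lean control. For Dnaja1 the means were 6.80, 6.90 and 6.99 in the same order. The differences between these genes were not tested.

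**Figure D3:**
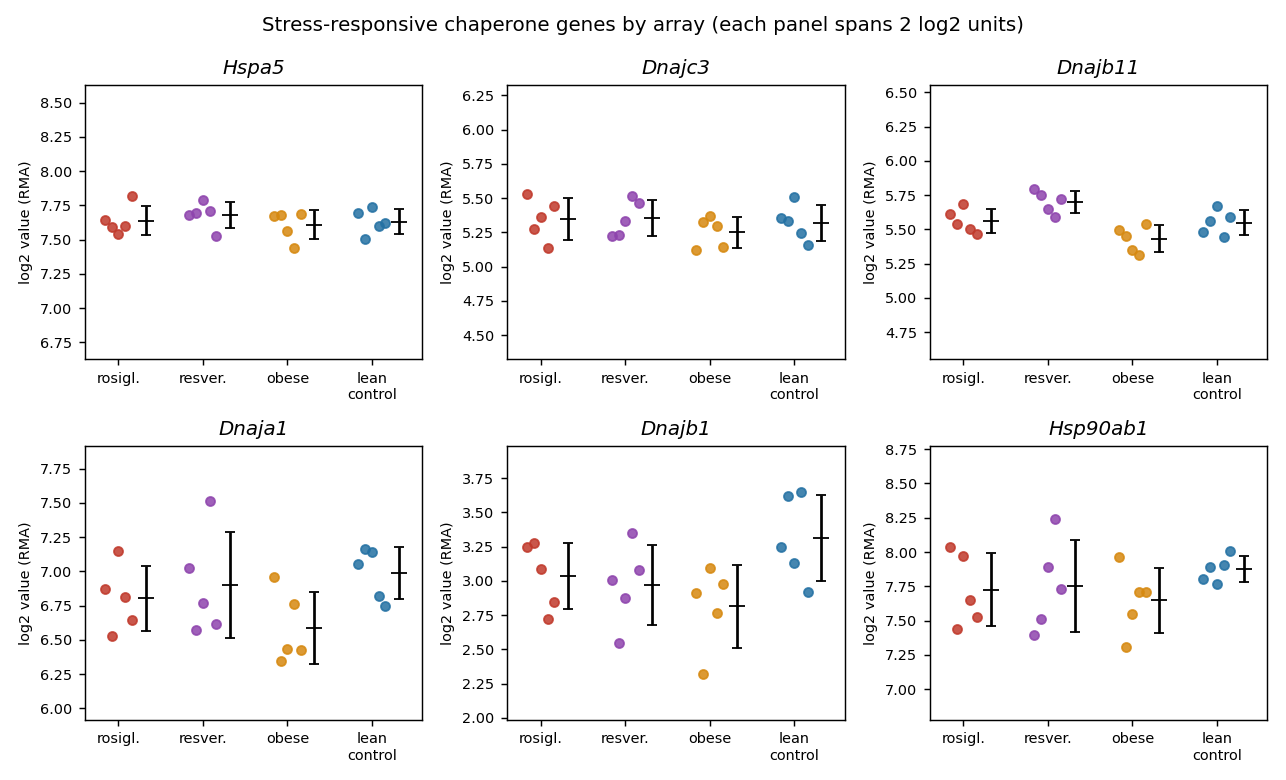
Log2 RMA signal (y axis) of 3 ER and 3 cytosolic chaperone genes, the constitutive Hsp90ab1 among them, in the 4 groups (x axis). Points are arrays and black bars the mean with its SD (n = 5), on panels of equal height. Hspa5 stays between 7.44 and 7.82 on all 20 arrays, while Dnaja1 and Hsp90ab1 each have their highest array, 7.51 and 8.24, in resveratrol replicate 4.

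Pdia5, a protein disulphide isomerase that forms and reshuffles disulphide bonds, was higher with rosiglitazone than with resveratrol. Its log2 signal was 4.14, 4.50, 4.52, 4.31 and 4.14 in rosiglitazone, 3.66, 3.99, 3.56, 3.70 and 4.09 in resveratrol, 3.88, 3.90, 4.06, 3.57 and 3.79 in obese and 4.32, 3.75, 3.98, 3.84 and 3.73 in lean control muscle. The rosiglitazone arrays lay above every resveratrol and every obese array, and lean control replicate 1 fell among them. Against resveratrol Pdia5 was 1.44-fold higher (log2 fold change 0.52, SE 0.13, adjusted p = 0.0383, limma). Over 15 alternatives the adjusted p ran from 0.0228 to 0.117 and 7 kept the call. It was lost without rosiglitazone replicate 2 (0.0994), 3 (0.110) or 4 (0.0691), without resveratrol replicate 1 (0.0949), 3 (0.117) or 4 (0.0863), with only the 2 groups compared (0.0767) and with a replicate block (0.0738). Against obese it was 0.48 (adjusted p = 0.0633) and against lean control 0.40 (adjusted p = 0.110). Against resveratrol, 3 of 7 adipocyte and 3 of 5 endothelial markers were called higher and 1 of 6 fibroblast markers lower in the same arrays, and their part was not tested. All 6 fibroblast markers were lower there at an unadjusted p under 0.05 (limma).

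The other disulphide isomerases had smaller values. Pdia3 (ERp57), which folds glycoproteins together with calreticulin, had 0.18 in rosiglitazone against obese, and Pdia6, which also tempers the stress sensors, had 0.18 in resveratrol against obese and -0.19 in rosiglitazone against resveratrol. None was called. Among the ER DnaJ genes, Dnajb11 read 5.79, 5.75, 5.65, 5.59 and 5.72 in resveratrol against 5.50, 5.45, 5.35, 5.32 and 5.54 in obese muscle. The groups did not overlap. The log2 fold change was 0.27 (SE 0.08, adjusted p = 0.563). Dnajb9, which hands misfolded proteins to degradation, had 0.16 for rosiglitazone and 0.17 for resveratrol against obese, and Dnajc10, an ER reductase with a DnaJ domain, had 0.02 and 0.13. Dnajc25 had -0.30 in rosiglitazone against resveratrol (adjusted p = 0.330). In resveratrol against obese 14 of 18 ER members had a positive value (median 0.12, beside 0.00 over all genes). In obese against lean control 13 of 18 had a negative value (median -0.08, beside -0.01), and the obese arrays are common to both. Genes of mean log2 4 or more leaned the same way in obese against lean control, with 3176 of 4979 negative and a median of -0.05. Their median was 0.02 in resveratrol against obese. The whole set of 69 members leaned likewise, with 49 positive in resveratrol against obese and 42 negative in obese against lean control. The direction of the ER class was not tested.

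Hspa13, a truncated HSP70 of the microsomes, had the largest difference of any member between obese and lean control muscle. It read 3.73, 3.94, 4.07, 3.81 and 3.97 in obese against 4.17, 4.68, 4.62, 4.43 and 4.70 in lean control muscle, and the groups did not overlap. The rosiglitazone arrays (3.87 to 4.31) and resveratrol arrays (3.97 to 4.35) overlapped both. The log2 fold change for obese against lean control was -0.62 (SE 0.12, adjusted p = 0.0762), which did not pass. It passed among the brighter genes (adjusted p = 0.0276), with trend and robust moderation (0.0381), without lean control replicate 1 (0.0446) and without obese replicate 5 (0.0495). For rosiglitazone against lean control it was -0.42 (adjusted p = 0.0549), which passed among the brighter genes (0.0167), with median centring (0.0428) and without lean control replicate 1 (0.0214). For resveratrol against obese it was 0.33 (adjusted p = 0.621).

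**Figure D4:**
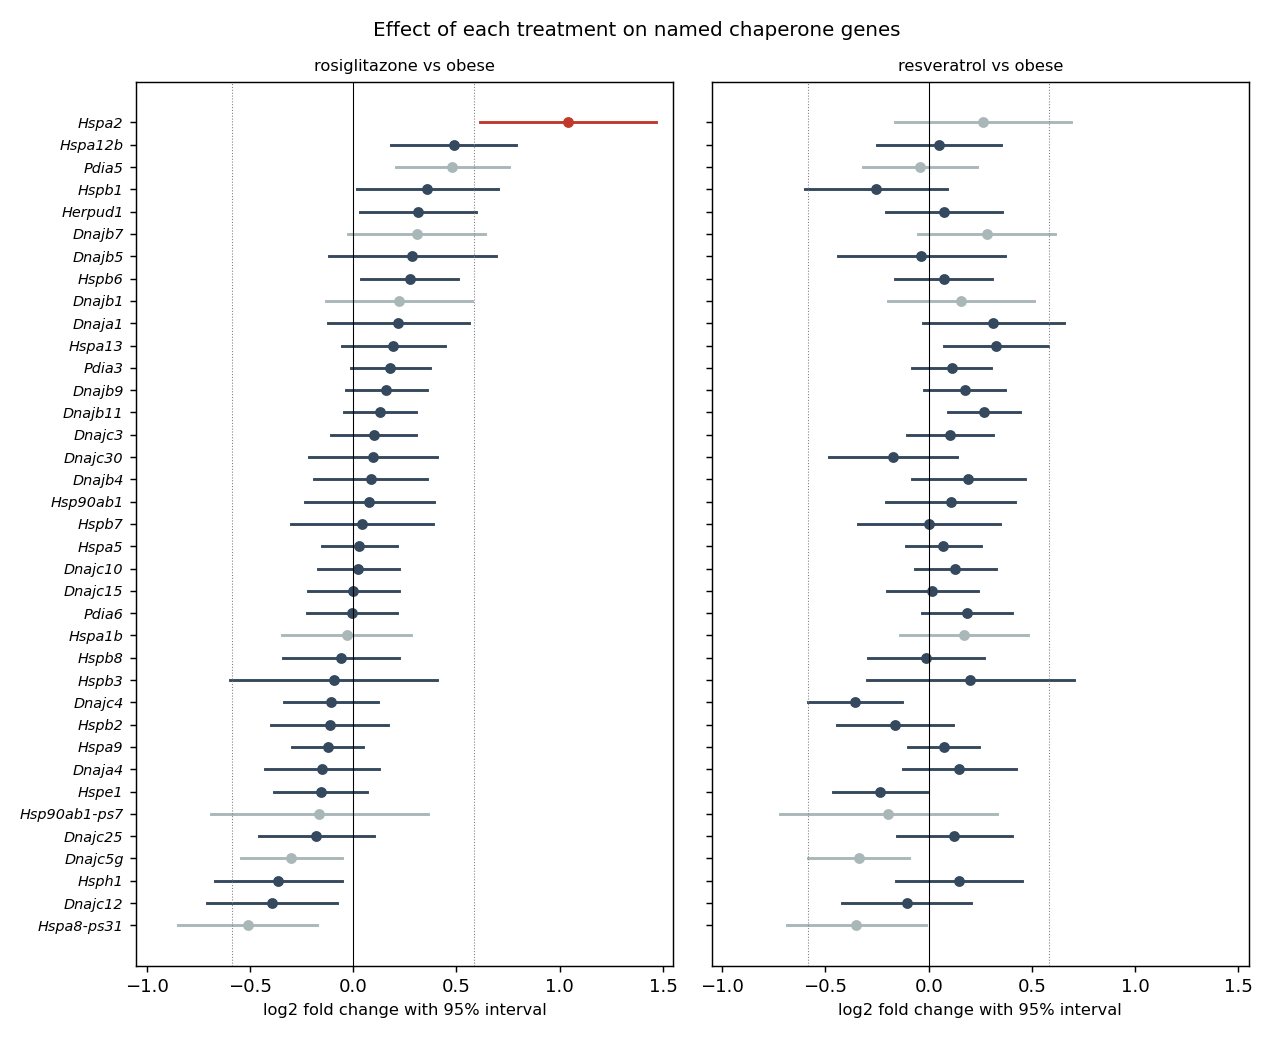
Log2 fold change with its 95% interval (x axis) of the 37 named members (y axis) for rosiglitazone against obese, left, and resveratrol against obese, right; red marks a called gene, grey a gene of mean log2 signal under 4, and dotted lines 1.5-fold. Hspa2 leads on the left at 1.04 (0.61 to 1.46), its value on the right is 0.27, and no gene is called on the right.

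Set side by side, the rosiglitazone and resveratrol groups differed on few members. Rosiglitazone minus resveratrol, which equals the difference between their values against the same obese arrays, called Pdia5. Genotype, dose and length of treatment are not stated, so a difference between groups cannot be assigned to the drugs alone. The next values were 0.77 for Hspa2, 0.61 for Hspb1 and -0.51 for Hsph1, none of which passed. For 59 of 69 members the 95% interval of this difference stayed within 1.5-fold. Resveratrol and lean control muscle, compared directly, had no called member, no member whose groups stood apart and 61 of 69 intervals within 1.5-fold.

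None of the 7 pseudogene or related rows was called. Hspa8-ps31, a processed copy of the constitutive HSP70 gene, averaged 1.72 ± 0.11 in rosiglitazone and 2.23 ± 0.39 in obese (SD, n = 5 each). The groups did not overlap, the log2 fold change was -0.51 (adjusted p = 0.126), and both means lay below the array medians. Where its sequence matches the parent gene, a probe cannot tell the 2 transcripts apart. Hsp90ab1-ps7 had the widest interval among the named members. The partners Hspbp1 and Hspbap1, an HSP70 exchange factor and a small heat shock protein binder, were called in no comparison.

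Genes of the same pathways outside the name rule gave 4 calls on 3 lists. Of 28 listed unfolded protein response and ER folding genes, 19 were measured and none was called in any comparison with limma. Between 0 and 3 of the 19 had an unadjusted p under 0.05 (at most 15.8%). That highest share stood in obese against lean control (10.8% of all genes) and in resveratrol against obese (7.41%). In rosiglitazone against obese, the stress transcription factors Atf4, Ddit3 and Xbp1 had 0.14, 0.15 and 0.11, and the lectin chaperone Calr -0.02. Of 30 heat shock factors, co-chaperones and chaperonin subunits, 25 were measured. In rosiglitazone against lean control 12 of these 25 had an unadjusted p under 0.05, 4 higher and 8 lower. This was 48.0%, beside 15.9% of all genes and 26.5% of those of mean log2 4 or more. For 4 the groups did not overlap (16.0%, beside 5.04% and 10.5% in the same order). The count was 6 (24.0%, beside 10.8%) in obese against lean control, 5 (20.0%, beside 8.63%) in resveratrol against lean control and 4 (16.0%, beside 13.0%) in rosiglitazone against resveratrol. It was 3 (12.0%) both in rosiglitazone against obese (13.6% of all genes) and in resveratrol against obese (7.41%). Set beside genes of mean log2 4 or more, the list had the lower share in rosiglitazone against resveratrol (21.3% of these genes). The same held in rosiglitazone against obese (19.2%). The list had the higher share in obese against lean control (13.0%) and in resveratrol against obese (7.31%). Its share was also higher in resveratrol against lean control. Chordc1, an HSP90 co-chaperone, fell to 6.95 ± 0.06 in rosiglitazone, against 7.30 ± 0.14 in resveratrol (SD, n = 5 each), a log2 fold change of -0.34 (adjusted p = 0.0476). Stip1, which bridges HSP70 and HSP90, fell to 7.26 ± 0.07 in rosiglitazone, against 7.70 ± 0.14 in lean control (SD, n = 5 each, log2 fold change -0.43, adjusted p = 0.0138).

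Fkbp5, an HSP90 partner induced by glucocorticoids, averaged 7.78 ± 0.26 in rosiglitazone, against 6.57 ± 0.93 in lean control (SD, n = 5 each, log2 fold change 1.21, adjusted p = 0.0317, limma). The lean control rats spread widely. Fkbp5 was also higher in obese (0.87) and in resveratrol muscle (1.05) than in lean control, neither called. Rosiglitazone against obese gave 0.34, not called. Hsf1 had -0.09, Bag3 -0.10 and the small heat shock protein Cryab 0.16 in rosiglitazone against obese, none called. Of 17 listed mitochondrial chaperones and proteases, 16 were measured, with between 0 and 2 at an unadjusted p under 0.05. The highest share was 12.5%, in rosiglitazone against lean control, beside 15.9% of all genes. Timm44, which anchors Hspa9 to the import channel, fell to 6.43 ± 0.13 in rosiglitazone, against 6.79 ± 0.14 in lean control (SD, n = 5 each, log2 fold change -0.36, adjusted p = 0.0442). The chaperone Trap1 had -0.03 and the protease Lonp1 -0.16 in rosiglitazone against obese. These 4 calls are the only ones on the 3 lists in the 6 comparisons, and the part of the marker genes called in the same comparisons was not tested. Of all genes, 2.04% were called in rosiglitazone against resveratrol (Chordc1) and 3.50% in rosiglitazone against lean control (Stip1, Fkbp5 and Timm44). In the latter, 146 of the 4979 genes of mean log2 4 or more were called higher and 212 lower.

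**Figure D5:**
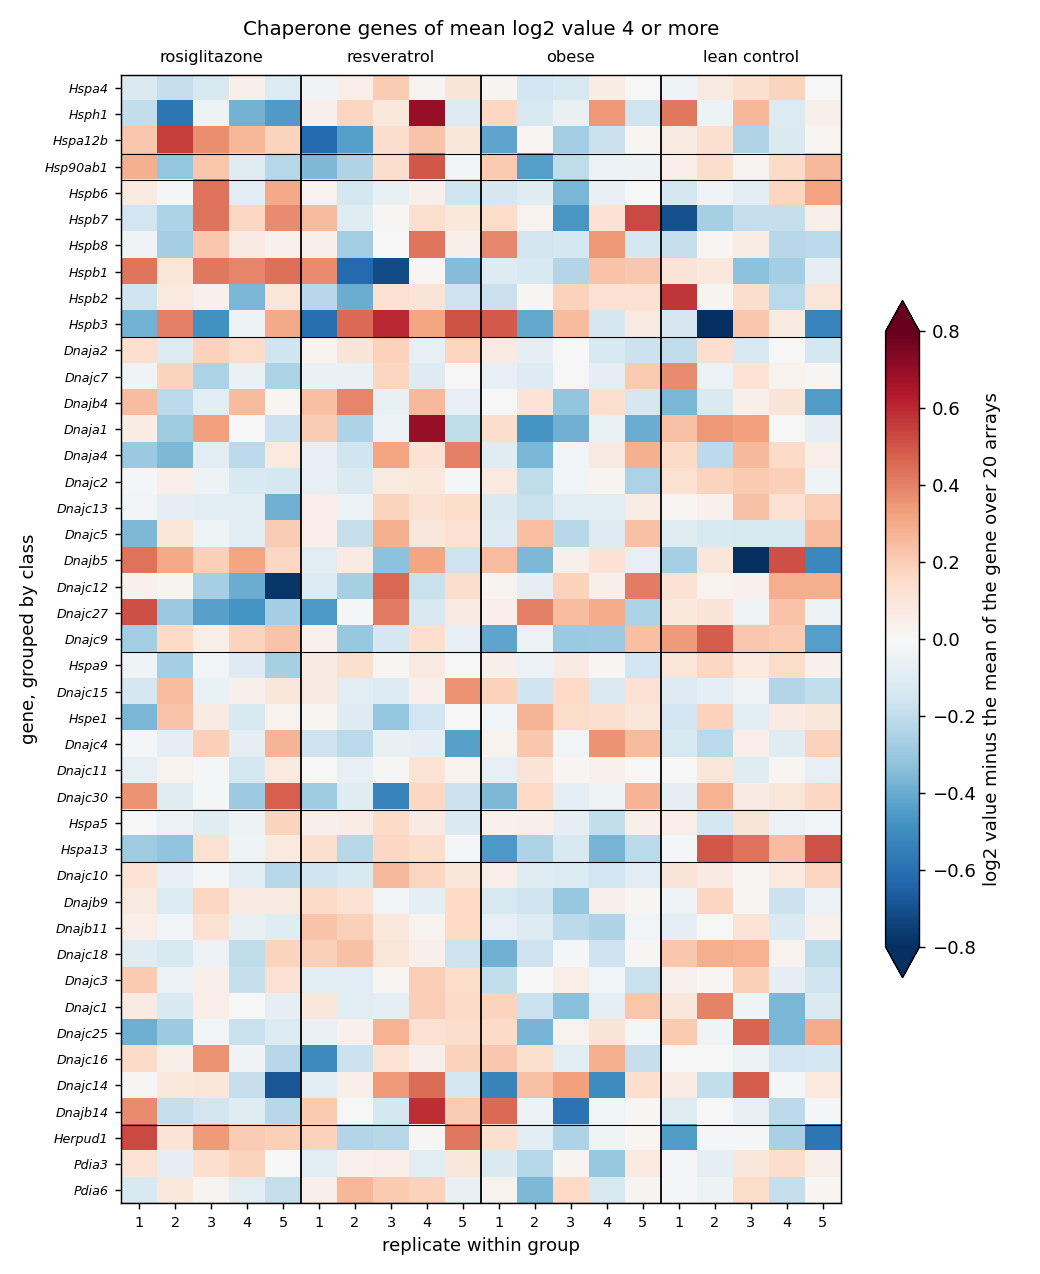
Log2 signal of the 43 members with a mean of 4 or more, minus the mean of the gene over the 20 arrays (colour, red above and blue below, ends of the scale at 0.8), by array (x axis, replicates within the 4 groups) and gene (y axis, blocks are classes). Hsph1, Dnaja1 and Hsp90ab1 each have their highest value, 6.72, 7.51 and 8.24, in resveratrol replicate 4.

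Arrays of a group differed in their mean signal over the chaperone members, in part along with other genes. Averaged over the 43 brighter members, resveratrol replicate 4 stood 0.14 log2 units above the mean of all arrays, the highest of the 20, and obese replicate 2 stood 0.09 below it, the lowest. Over all 4979 genes of that brightness the same arrays stood at 0.03 and -0.03. Some arrays shifted alike on both sets: resveratrol replicate 2 stood at -0.06 beside -0.08, and obese replicate 3 at -0.08 beside -0.06. Lean control replicate 1 did not, at 0.01 beside 0.05. Hsph1, Dnaja1 and Hsp90ab1 had their highest array in resveratrol replicate 4, at 6.72, 7.51 and 8.24. Other heat shock genes peaked elsewhere: Dnajb1 at 3.65 in lean control replicate 4, Hspa1b at 3.27 in rosiglitazone replicate 5 and Hspe1 at 6.31 in obese replicate 2. Group ranges of the 43-member mean overlapped throughout, at 6.01 to 6.11 in rosiglitazone, 6.00 to 6.20 in resveratrol, 5.97 to 6.09 in obese and 6.04 to 6.11 in lean control.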

How the data were processed

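Total RNA (100 ng) from red tibialis anterior was hybridised to Affymetrix Rat Gene 2.1 ST arrays, 20 arrays in 4 groups of 5. The authors normalised the scanner data with RMA (background correction, quantile normalisation and probe summary; version not given in the sources used here) and deposited log2 values for 36685 rows, which RMA makes comparable between arrays but which compress small differences near background. No strip, scan or extraction batch is given. Platform annotation, which can be old, gave 14824 rows a single symbol, 829 several and 21032 none. Tests used single-symbol rows alone, and the brightest row stood for each of 234 genes with more than 1 row, leaving 14557 genes. Of the 69 members, 68 matched RefSeq by gene ID. Hspa1a, Hspa8, Hsp90aa1, Hsp90b1, Hspd1, Dnaja3, Dnajb6, Dnajc19 and Pdia4 had no row of their own and were not analysed here.

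Groups were taken from the sample titles. The paper's methods state no test between these groups, so limma 3.58.1 (R 4.3.3) fitted 4 group means over 20 arrays (16 residual degrees of freedom), with two-sided moderated tests and the Benjamini-Hochberg adjustment over all genes within each of 6 comparisons. Calls were made below an adjusted p of 0.05. The titles number biological replicates and give no other source of each RNA. The p-values weigh group differences against the spread between these arrays. Array number limits precision, and the median residual SD was 0.222. Tables and plots used Python 3.11.15, pandas 2.3.3, scipy 1.17.1 and matplotlib 3.10.9. The named members (37) were those called, the 3 highest and 3 lowest log2 fold changes of each comparison, the 3 of highest mean level and a fixed list of well-known chaperones. Hspa4, Dnajc2, Dnajc9, Dnajc13, Dnajc5b, Dnajc27, Hspbp1 and Hspbap1 were named after their values were seen. Members and gene lists were chosen with earlier results of these data known. Alternatives were the mean of all rows of a gene, only genes of mean log2 of 4 or more, trend and robust moderation, only the groups compared, a replicate block, median centring and leaving out each array.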

Additional observations from a re-analysis of the deposited data

Results flagged for a closer look

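Among 148 groups of 5 arrays of the named members, 5 held an array far from the other 4, and chance alone sets apart about 1 group in 20. Hspa2 in rosiglitazone replicate 4 was 3.20, below the other rosiglitazone arrays (3.70 to 3.85), and Hspb1 in rosiglitazone replicate 2 was 6.80, below the others (7.10 to 7.14). Hspb3 in resveratrol replicate 1 was 4.33, below the others (5.25 to 5.54). In lean control muscle, Hspa1b was 2.35 in replicate 3, below the others (2.80 to 2.96), and Dnajc5g was 1.998 in replicate 1, above the others (1.58 to 1.69). The rosiglitazone and resveratrol groups differed for Pdia5, by 0.52 log2 units (rosiglitazone minus resveratrol, adjusted p = 0.0383 over all genes, limma). Of 15 alternatives, 7 kept this call.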

How the results depend on the processing

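No named member changed direction while called. Of 3504 log2 fold changes of the 37 named members recomputed under the alternatives, 3462 stayed on the same side of the threshold. A call was lost by 15 and gained by 27. Within the 3462, 131 uncalled values changed sign. The number of members called stayed at 0 under every alternative for resveratrol against obese and resveratrol against lean control. For obese against lean control it was 1 (Hspa13) among genes of mean log2 of 4 or more and with trend and robust moderation, against 0 in the report, and 0 to 1 on leaving out an array. For rosiglitazone against obese it was 2 with median centring (Hspa2 and Pdia5), against 1, and 1 on leaving out any array. For rosiglitazone against resveratrol it was 2 among the brighter genes (Hspb1 and Hsph1), 4 with trend and robust moderation (Hspa2, Hspb1, Hsph1 and Pdia5), 0 with only the groups compared and 0 to 2 on leaving out an array, against 1. For rosiglitazone against lean control it was 5 among the brighter genes (Dnajc13, Herpud1, Hspa13, Hspa9 and Hsph1), 2 with trend and robust moderation (Herpud1 and Hspa9), 2 with median centring (Herpud1 and Hspa13) and 0 to 2 on leaving out an array, against 1. Why these counts moved was not tested. In the brighter set fewer genes were adjusted over and the moderated fit was also rerun on those genes, and the 2 changes were not separated.

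With the replicate number as a block, the count was 2 for rosiglitazone against resveratrol (Hspa2 and Hspb1) and 0 for rosiglitazone against lean control. The numbers were not taken to pair the rats: deviations of same-numbered arrays correlated at -0.045 on average over 30 pairs (-0.38 to 0.146), beside 0.011 over 120 other pairs, and 1 of 20 arrays correlated best with its own number. Over all genes, the calls for obese against lean control were 1 in the report, 23 among the brighter genes and 24 with trend and robust moderation or without obese replicate 5. For rosiglitazone against resveratrol they were 297 in the report and 177 with only the groups compared. Signal near background limits the 15 members below the highest array median.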

Other observations

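Rows that carry several symbols were left out of the tests, and 3 of them hold heat shock genes with no row of their own. The row shared by Hspa1a and Hspa1b, the heat-inducible HSP70 pair, averaged 2.81 ± 0.10 in rosiglitazone, 2.71 ± 0.24 in resveratrol, 2.66 ± 0.23 in obese and 2.74 ± 0.20 in lean control (SD, n = 5 each). The row shared by Hsp90aa1, the inducible cytosolic HSP90, and a pseudogene of it averaged 6.43 ± 0.22 in rosiglitazone, 6.41 ± 0.48 in resveratrol, 6.10 ± 0.34 in obese and 6.38 ± 0.24 in lean control (SD, n = 5 each). Its highest array, at 7.22, was in the resveratrol group. The remaining row lists Hsp90aa1 among 7 symbols, ribosomal RNA included, and averaged 9.97 ± 0.15 in rosiglitazone, 10.01 ± 0.15 in resveratrol, 10.02 ± 0.12 in obese and 9.84 ± 0.10 in lean control (SD, n = 5 each).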
